A study of Mus musculus with 18 samples.

Results

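The genes described here are 9 markers of T, B and natural killer (NK) lymphocytes in mouse liver: Cd28, Cd3e, Cd3g, Cd4 and Cd8a for T cells, Cd79a, Cd79b and Ms4a1 for B cells, and Nkg7 for NK and cytotoxic T cells. They are a list of lineage markers matched by symbol, with no cut-off on measured values, and all 9 were found in the table of 50600 genes at 1 day and in the table of 17127 genes at 12 hours. The study asked how the liver responds to myocardial infarction (MI, made here by tying off the left anterior descending artery for good) and how loss of the mineralocorticoid receptor (MR, gene Nr3c2) from hepatocytes changes that response. At 1 day after surgery there were 4 groups of 3 livers: HMRKO + MI, LC + MI, HMRKO + sham and LC + sham. At 12 hours there were 3 MI and 3 sham livers of wild type C57 mice. HMRKO mice were MR flox/flox mice with an Alb-Cre transgene, labelled MR-/-, and LC mice were MR flox/flox littermates without Cre, labelled wild type. The albumin promoter drives Cre in hepatocytes, so the lymphocytes of these mice are not the targeted cells. All livers are labelled C57BL/6 and 12 weeks of age. The titles at 1 day name only the sham livers, and the others were read as MI from the stated design. The labels number the livers of a group and say nothing more of their origin, so the p-values measure the spread between these livers.

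The T cell receptor signals through the CD3 chains, of which Cd3e and Cd3g encode a pair, and CD4 and CD8 bind MHC class II and class I beside it. CD28 gives the second, costimulatory signal when it meets CD80 or CD86 on a presenting cell. The B cell receptor signals through CD79A and CD79B, Ms4a1 encodes the B cell surface protein CD20, and Nkg7 encodes a granule protein of NK cells and cytotoxic T cells. The mouse liver holds resident NK cells, NKT cells, T cells and B cells in its sinusoids, but hepatocytes give most of the RNA of a whole liver.

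In these whole livers the markers were scarce. The 9 genes together took 37 to 195 counts per library at 1 day, of libraries of 19098704 to 28945526 counts, and 74 of their 108 values lay under 10 counts. At this depth 1 count is a level of 0.0346 to 0.0559 CPM (counts scaled to a common library size after TMM normalization), and each value below carries counting error on top of the spread between livers. In whole tissue, fewer cells of a type and less RNA per cell cannot be told apart. The filter on low counts kept 6 of the 9 genes at 1 day (Cd28, Cd3g, Cd4, Cd79a, Cd79b and Nkg7) and left out Cd3e, Cd8a and Ms4a1, whose values are given without a test. The 10 hepatocyte genes checked summed to 60500 to 87500 CPM at 1 day, with none at 0. Nr3c2, the targeted gene, had 0.968 ± 0.111 CPM in HMRKO + MI, 2.53 ± 0.896 CPM in LC + MI, 3.08 ± 0.619 CPM in HMRKO + sham and 5.67 ± 0.999 CPM in LC + sham livers (SD, n = 3 each). Mitochondrial genes took 8.68% to 9.1%, 10.9% to 18.9%, 10.1% to 15.6% and 7.53% to 9.65% of the counts in those 4 groups, in the same order. The sham libraries at 12 hours held 1361564 to 2255837 counts, against 16745688 to 19190438 in the MI libraries.

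**Figure D1:**
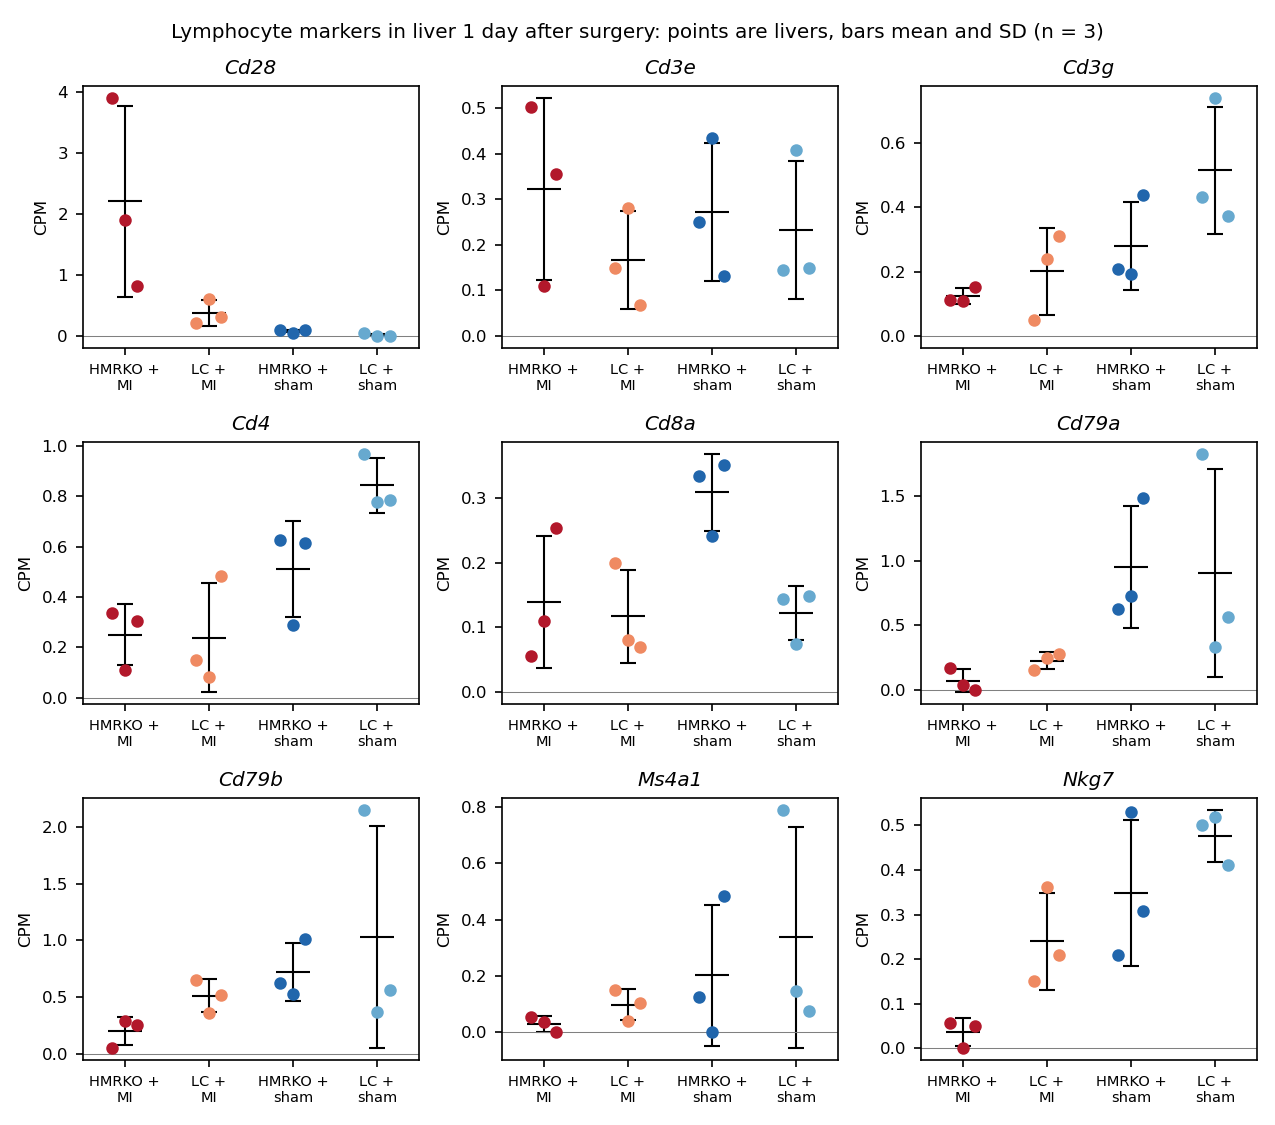
The level of each of the 9 markers in every liver at 1 day, in CPM on a linear axis that differs between panels, with points for livers and black bars for the mean and SD (n = 3 a group). Cd28 is highest in HMRKO + MI livers, where Nkg7, Cd79a and Ms4a1 are at or near 0, and LC + sham replicate 1 stands above the rest for the 3 B cell genes.

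Cd28 was the 1 tested marker that was higher after MI, and higher again in HMRKO + MI than in LC + MI livers, while the other T cell genes showed no increase that passed. Cd28 (ENSMUSG00000026012) had 70, 52 and 16 counts in the 3 HMRKO + MI livers, against 4, 15 and 9 counts in LC + MI livers. In sham livers it was almost absent, with 2, 1 and 2 counts in HMRKO + sham and 1, 0 and 0 counts in LC + sham. No HMRKO + MI liver overlapped with any liver of another group, and every LC + MI liver lay above every sham liver. As levels, the means were 2.21 ± 1.57 CPM in HMRKO + MI, 0.372 ± 0.208 CPM in LC + MI, 0.0732 ± 0.0218 CPM in HMRKO + sham and 0.012 ± 0.0207 CPM in LC + sham livers (SD, n = 3 each). Within HMRKO + MI the livers spread widely, at 3.91, 1.9 and 0.812 CPM.

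With edgeR's quasi-likelihood test and Benjamini-Hochberg adjustment over 14266 genes, Cd28 was higher in HMRKO + MI than in LC + MI livers by 2.53 on the log2 scale (SE 0.57, adjusted p = 0.00669). It was higher in HMRKO + MI than in HMRKO + sham livers by 4.79 (SE 0.72, edgeR adjusted p = 0.000322) and in LC + MI than in LC + sham livers by 4.45 (SE 1.1, edgeR adjusted p = 0.0316). These comparisons share livers and are not independent of each other. The LC + sham group held 1 Cd28 count in all, so the last value is poorly determined: the ratio of the summed counts per library size was 31, with a 95% counting interval of 5.13 to 1270. Cd28 met the filter through its counts in HMRKO + MI livers, and was not kept for testing when only the LC livers were fitted. The call was also lost when LC + MI replicate 2 or 3 or any 1 of the LC + sham livers was left out, with edgeR adjusted p between 0.0521 and 0.11 and log2 differences of 3.93 to 6.17. The ratio of the summed counts was 5.59 (3.71 to 8.73) for HMRKO + MI over LC + MI and 28.6 (12 to 89.6) for HMRKO + MI over HMRKO + sham livers, and both of these calls held without any single liver. The change with MI did not differ detectably between genotypes in Cd28 (interaction 0.34 on the log2 scale, edgeR adjusted p = 0.987), a term that rests on the near absence of counts in sham livers.

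Neither Cd4 nor Cd3g passed a test at 1 day, and both had lower means in each MI group than in its sham group. Cd4 had 6, 3 and 6 counts in HMRKO + MI, 3, 2 and 14 in LC + MI, 15, 6 and 14 in HMRKO + sham and 27, 21 and 21 in LC + sham livers. The LC + sham livers thus lay above all others for Cd4, and the 2 MI groups overlapped. Cd4 differed by -1.74 on the log2 scale between LC + MI and LC + sham livers (SE 0.56, edgeR adjusted p = 0.0919), by -1.09 between HMRKO + MI and HMRKO + sham livers (SE 0.61, adjusted p = 0.162) and by -0.06 between HMRKO + MI and LC + MI livers (SE 0.64, adjusted p = 0.951). None of these passed the threshold of 0.05.

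Cd3g had 2, 3 and 3 counts in HMRKO + MI livers, against 1, 6 and 9 in LC + MI livers. In the sham groups it had 5, 4 and 10 counts in HMRKO + sham and 12, 20 and 10 counts in LC + sham livers. LC + MI livers lay below LC + sham livers without overlap, and so did HMRKO + MI livers below HMRKO + sham livers, but neither difference passed the edgeR test (-1.27, SE 0.54, adjusted p = 0.192, and -1.15, SE 0.66, adjusted p = 0.171). Cd3e, which encodes the epsilon chain of the same complex, had 9, 3 and 7 counts in HMRKO + MI, 3, 7 and 2 in LC + MI, 6, 9 and 3 in HMRKO + sham and 4, 11 and 4 in LC + sham livers. All 4 groups overlapped for Cd3e. The ratio of summed Cd3e counts was 1.8 for HMRKO + MI over LC + MI livers with a counting interval of 0.828 to 4.06, and 0.699 (0.31 to 1.52) for LC + MI over LC + sham livers.

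Cd8a, the coreceptor chain of cytotoxic T cells, was at a few counts in every liver. It had 1, 3 and 5 counts in HMRKO + MI, 4, 2 and 2 in LC + MI, 8, 5 and 8 in HMRKO + sham and 4, 2 and 4 in LC + sham livers. The HMRKO + sham livers lay above the LC + sham livers without overlap, with a ratio of summed counts of 2.54 and a counting interval of 1.15 to 6.05. When the filter was lifted, this difference did not pass (1.31 on the log2 scale, edgeR adjusted p = 0.938 over the unfiltered table).

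**Figure D2:**
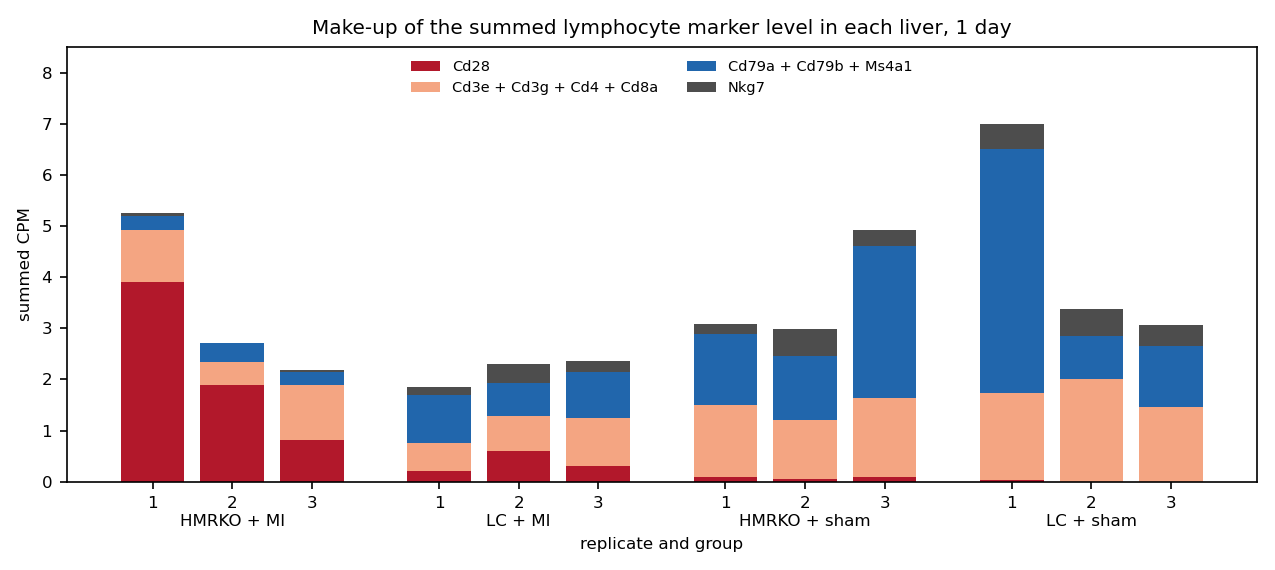
The summed level of the 9 markers in each of the 12 livers at 1 day, in CPM, split into Cd28 (red), the other 4 T cell genes (light orange), the 3 B cell genes (blue) and Nkg7 (grey). Cd28 makes up most of the bar in HMRKO + MI replicates 1 and 2 and almost none of it in sham livers, and the B cell share is largest in LC + sham replicate 1.

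Summed over the 4 T cell genes other than Cd28, the livers held 1.01, 0.438 and 1.07 CPM in HMRKO + MI and 0.551, 0.684 and 0.934 CPM in LC + MI. The sham livers held 1.42, 1.16 and 1.54 CPM in HMRKO + sham and 1.69, 2 and 1.46 CPM in LC + sham. Both MI groups therefore lay below both sham groups for the sum of these genes, while Cd28 lay above. Cd3e and Cd8a alone did not follow the sum. The mean of Cd3e was 0.323 CPM in HMRKO + MI, 0.167 in LC + MI, 0.272 in HMRKO + sham and 0.233 in LC + sham livers. That of Cd8a was 0.14, 0.117, 0.309 and 0.122 CPM in the same order. Cd28 was 65.4% of all counts of the 9 genes in HMRKO + MI livers, 17.3% in LC + MI, 2.02% in HMRKO + sham and 0.272% in LC + sham livers.

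Of the B cell receptor genes Cd79a was lower in HMRKO + MI than in HMRKO + sham livers, and Cd79b did not pass. Cd79a (ENSMUSG00000003379) had 3, 1 and 0 counts in HMRKO + MI livers, against 15, 15 and 34 counts in HMRKO + sham livers. It had 3, 6 and 8 counts in LC + MI livers, against 51, 9 and 15 counts in LC + sham livers. Both MI groups lay below their sham group without overlap. The log2 difference of Cd79a between HMRKO + MI and HMRKO + sham livers was -3.82 (SE 0.89, edgeR adjusted p = 0.00434), a call that held without any single liver. Cd79a met the filter only through its counts in sham livers, where it was high. The ratio of summed counts was 0.0649, with a counting interval of 0.0171 to 0.174. Between LC + MI and LC + sham livers the difference was -1.98 (SE 0.7, edgeR adjusted p = 0.122) and between HMRKO + MI and LC + MI livers -1.78 (SE 1, adjusted p = 0.208), and neither passed.

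Cd79b, its partner in the receptor, had 1, 8 and 5 counts in HMRKO + MI, 13, 9 and 15 in LC + MI, 15, 11 and 23 in HMRKO + sham and 60, 10 and 15 in LC + sham livers. HMRKO + MI livers lay below both LC + MI and HMRKO + sham livers without overlap. The difference from HMRKO + sham livers was -1.76 (SE 0.72, edgeR adjusted p = 0.0638) and that from LC + MI livers -1.25 (SE 0.74, adjusted p = 0.215). The difference from HMRKO + sham livers passed under 5 of 18 alternatives, among them DESeq2 (adjusted p = 0.0363) and the fit without LC + sham replicate 1 (adjusted p = 0.0161). Ms4a1 had 1, 1 and 0 counts in HMRKO + MI, 3, 1 and 3 in LC + MI, 3, 0 and 11 in HMRKO + sham and 22, 4 and 2 in LC + sham livers, with overlap between every MI group and its sham group. Its ratio of summed counts was 0.148 (0.0164 to 0.645) for HMRKO + MI over HMRKO + sham livers, on 2 and 14 counts.

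One liver carried much of the B cell level of LC + sham. Replicate 1 of that group held 133 counts of the 3 B cell genes, against 23 and 32 in the other two livers, while its 47 counts of Cd3e, Cd3g, Cd4 and Cd8a lay between their 54 and 39. The B cell genes were 73.9% of B and T counts there (exact 95% interval 66.8% to 80.1%), against 29.9% (20% to 41.4%) and 45.1% (33.2% to 57.3%). Of 23 further B cell genes, 17 were highest in replicate 1 of the 3 LC + sham livers as CPM, 4 in replicate 2 and 2 in replicate 3. As examples named after their values were seen, Ighd had 78, 19 and 17 counts and Cd22 71, 16 and 28 in LC + sham replicates 1, 2 and 3, whereas Igkc had 265, 228 and 256, Jchain 27, 50 and 17 and Blnk 24, 91 and 34 counts. Without replicate 1, the Cd79b difference between LC + MI and LC + sham livers was 0.12 on the log2 scale, against -1.02 (SE 0.61, edgeR adjusted p = 0.362) with all livers.

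Nkg7 was close to absent from HMRKO + MI livers. Nkg7 (ENSMUSG00000004612) had 1, 0 and 1 counts in HMRKO + MI livers, against 3, 9 and 6 counts in LC + MI livers. It had 5, 11 and 7 counts in HMRKO + sham and 14, 14 and 11 counts in LC + sham livers. HMRKO + MI livers lay below every liver of the other 3 groups. Nkg7 was lower in HMRKO + MI than in LC + MI livers, with a log2 difference of -2.77 (SE 0.8, edgeR adjusted p = 0.0212), and lower than in HMRKO + sham livers, with one of -3.26 (SE 0.77, adjusted p = 0.00465). Nkg7 met the filter only through its counts in sham livers. On 2 and 18 counts, the ratio of summed counts over LC + MI livers was 0.126 with a counting interval of 0.0142 to 0.527. In edgeR fits that left out replicate 2 of HMRKO + MI or replicate 2 of LC + MI, the call against LC + MI livers was lost, at adjusted p of 0.0855 and 0.0691, whereas that against HMRKO + sham livers held without any single liver. LC + MI livers lay below LC + sham livers without overlap, but the difference did not pass (-0.96, SE 0.51, adjusted p = 0.292).

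**Figure D3:**
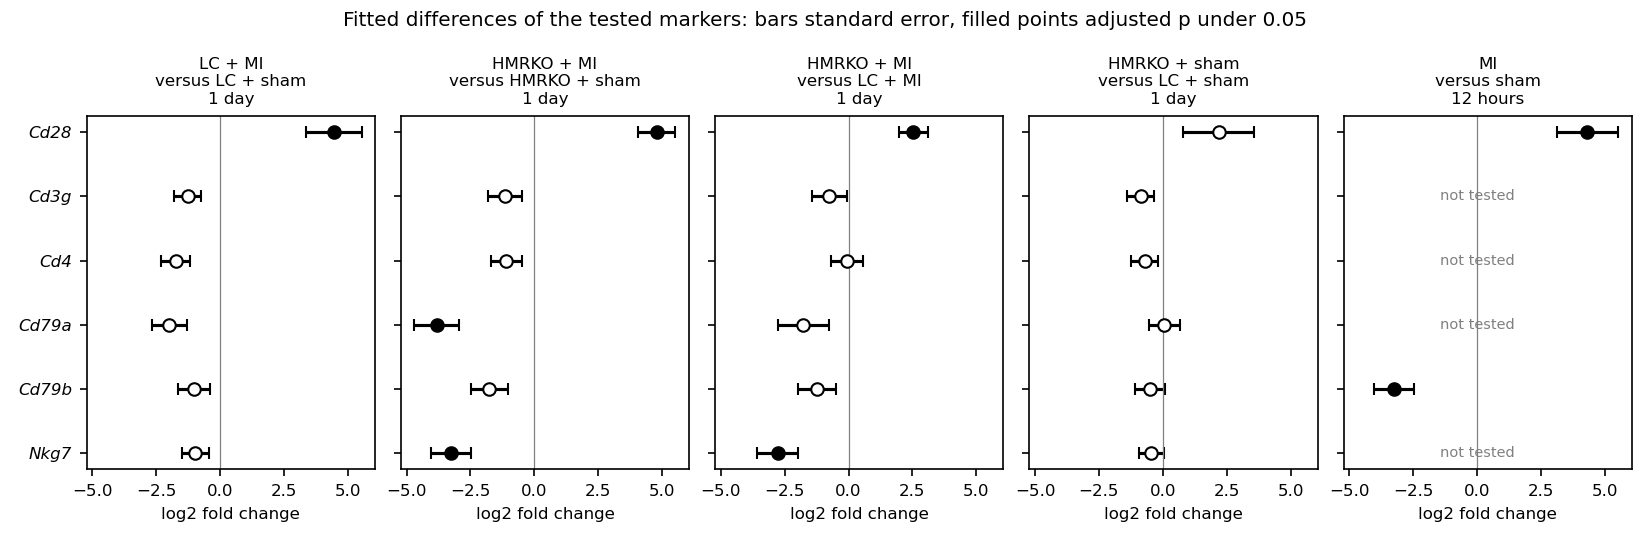
The fitted log2 fold change of each tested marker (rows) in the 4 comparisons at 1 day and the 1 at 12 hours, with bars for the standard error and filled points for an edgeR adjusted p under 0.05. Cd28 lies right of 0 in all 5 panels and passes in 4, whereas Cd79a, Cd79b and Nkg7 lie left of 0 in both comparisons of HMRKO + MI livers.

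Counted over the 6 tested markers, 1 was higher and 0 were lower in LC + MI than in LC + sham livers, where 2.68% of all genes tested were higher and 2.33% lower. In HMRKO + MI against LC + MI livers 1 was higher and 1 lower, beside 14.6% and 16.2% of all genes. In HMRKO + MI against HMRKO + sham livers 1 was higher and 2 were lower, beside 22% and 21.7% of all genes, so a share of this size is near the background of that comparison. Of the 6 genes, 5 had a negative log2 difference in each of these 3 comparisons, with medians of -1.15, -1 and -1.46, against medians of 0.01, -0.01 and 0.01 over all genes tested. Apart from Cd28, the tested genes met the filter mainly through sham livers, which favours lower values in MI than in sham livers among them. Untested Cd3e had a ratio of summed counts of 1.8 for HMRKO + MI over LC + MI and 1.1 over HMRKO + sham livers. Those of Cd8a were 1.28 and 0.445, and those of Ms4a1 0.324 and 0.148. In HMRKO + sham against LC + sham livers none of the 6 passed in edgeR or in DESeq2, and none had an unadjusted edgeR p under 0.05, beside 0.021% of all genes higher and 0.014% lower. The genotype by operation interaction passed for none of the 6, beside 15.2% of all genes in either direction. In it Nkg7 had the smallest p, at -2.3 on the log2 scale (unadjusted p = 0.0316, adjusted p = 0.113), and DESeq2 also called none.

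The RefSeq promoter table (GRCm38.p6) held 5 of the 9 genes, and the 250 bases before the start are shown for Cd79a and Nkg7, the genes with an entry that were lower in a comparison that passed. Cd28, Cd4, Cd79b and Ms4a1 had no entry. Capitals mark AGGAAG, which holds the core of Ets factor sites, and AGAACA, the unit that is repeated in the response element shared by MR and the glucocorticoid receptor, both searched on either strand. The Cd79a window is chr7:24897247-24897496 (+ strand) and the Nkg7 window chr7:43436888-43437137 (+ strand).
Cd79a: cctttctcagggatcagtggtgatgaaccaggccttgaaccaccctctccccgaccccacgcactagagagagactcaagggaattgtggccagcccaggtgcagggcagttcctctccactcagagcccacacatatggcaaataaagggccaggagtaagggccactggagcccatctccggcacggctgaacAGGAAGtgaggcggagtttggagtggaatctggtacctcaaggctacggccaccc
Nkg7: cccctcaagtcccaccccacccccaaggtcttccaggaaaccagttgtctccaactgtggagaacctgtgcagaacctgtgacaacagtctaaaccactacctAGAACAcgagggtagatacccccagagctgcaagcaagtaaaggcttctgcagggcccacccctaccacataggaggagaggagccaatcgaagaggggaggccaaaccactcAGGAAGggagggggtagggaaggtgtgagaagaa
AGGAAG stood in the windows of Cd79a, Nkg7 and Cd3e, and in 29.5% of all 32851 promoter windows of that length. AGAACA stood in those of Nkg7 and Cd8a, and in 16.1% of all windows. No marked match overlapped another. The octamer ATTTGCAT of B cell genes was in none of the 5 and in 1.6% of all windows. The full corticosteroid response element, which holds AGAACA, and the EBF1 motif were in none of the 5 either, and in 0.00913% and 0.779% of all windows. These matches describe letters and no binding was measured.

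Other genes of the same lineages were read from lists, and the same filter on low counts set which of them were tested. For genes kept only through sham livers, it favours lower values in MI than in sham livers. The list counts and medians can therefore reflect the filter. Among 26 further T cell genes 9 were tested. In HMRKO + MI against HMRKO + sham livers 0 were higher and 3 lower (list median -1.03 on the log2 scale, all genes 0.01), beside 21.7% of all genes lower. These were Zap70, the kinase of the T cell receptor (-1.58, SE 0.35, edgeR adjusted p = 0.00335), the adaptor gene Lat (-1.34, adjusted p = 0.0141) and the receptor beta chain gene Trbc2 (-1.45, adjusted p = 0.0221). The Lat call was lost under 2 of 18 alternatives and the Trbc2 call under 4 of 17. Against LC + MI livers Lat alone of the 9 was lower (-1.19, SE 0.39, edgeR adjusted p = 0.0364), and 9 of 18 alternatives lost that call. In LC + MI against LC + sham livers Zap70 alone passed (-1.33, SE 0.34, adjusted p = 0.0426), and 10 of 18 alternatives lost it. None of the 9 was higher in either MI group than in its sham group, or in HMRKO + MI than in LC + MI livers, with an edgeR adjusted p under 0.05.

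Of 12 further B cell and plasma cell genes tested, 0 were higher and 9 lower in HMRKO + MI than in HMRKO + sham livers (list median -1.82, all genes 0.01), where 21.7% of all genes were lower. They included the receptor adaptor gene Blnk (-2.53, SE 0.54, edgeR adjusted p = 0.00262), Cd72, an inhibitory receptor of B cells (-0.92, SE 0.17, adjusted p = 0.0012), the immunoglobulin heavy chain gene Ighm (-1.79, adjusted p = 0.002) and Jchain, which links secreted IgM and IgA (-2.31, adjusted p = 0.0023). The limit set by the filter, given above for the lists, holds for the B cell genes too. Which cells gave the RNA of Cd72 was not measured. Against LC + MI livers 0 of the 12 were higher, 4 lower and 8 did not pass, beside 16.2% of all genes lower. Among the 4 were Mzb1, a plasma cell and marginal zone B cell gene (-2.28, SE 0.5, adjusted p = 0.00567), Cd72 (-0.72, SE 0.17, adjusted p = 0.00865) and the IgD heavy chain gene Ighd (-2.11, adjusted p = 0.048). The call of Ighd was lost under 7 of 18 alternatives. In LC + MI against LC + sham livers Blnk (-2.61, SE 0.55, adjusted p = 0.0205) and Syk (-0.66, SE 0.15, adjusted p = 0.025) were lower. Syk is also expressed by myeloid cells, and the calls of Blnk and Syk were lost under 4 and 6 of 18 alternatives. In HMRKO + sham against LC + sham livers none of the 9 T cell, 12 B cell and 6 NK cell genes passed in edgeR.

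The tested genes of the NK cell and cytotoxic list did not all follow Nkg7. The whole list summed to 6.13 to 8.42 CPM in HMRKO + MI and 9.89 to 13.6 CPM in LC + MI livers. In sham livers the sum was 11 to 11.6 CPM in HMRKO + sham and 12.1 to 12.9 CPM in LC + sham. HMRKO + MI livers thus lay lowest without overlap, as for Nkg7, and S1pr5 gave a large part of the sum in the other groups. Of the 25 genes of the list 6 were tested, and in LC + MI against LC + sham livers none of the 6 passed in edgeR. S1pr5, a sphingosine 1-phosphate receptor of NK cells, had 25, 84 and 66 counts in HMRKO + MI, 210, 185 and 179 in LC + MI, 166, 134 and 140 in HMRKO + sham and 188, 165 and 221 in LC + sham livers. It was lower in HMRKO + MI than in LC + MI livers (-1.61, SE 0.28, edgeR adjusted p = 0.00233). The counts of S1pr5 lay far above those of Nkg7 in every group, and which cells gave them was not measured. Il18rap, a chain of the interleukin-18 receptor, had 33, 23 and 18 counts in HMRKO + MI livers, against 9, 5 and 7 in LC + MI livers. It was higher in HMRKO + MI livers (2.01, SE 0.55, edgeR adjusted p = 0.0166), a call lost without HMRKO + MI replicate 1 (0.0715) or LC + MI replicate 2 (0.0546) or 3 (0.0566). The list median was -0.27, against -0.01 over all genes. In HMRKO + MI livers 7 genes of the list had no count in any library, among them Eomes and Ncr1, the gene of an activating NK receptor, both named after their values were seen, against 6 genes in LC + MI, 4 in HMRKO + sham and 2 in LC + sham livers. In the other groups Ncr1 had 0, 1 and 1 counts in LC + MI, 1, 0 and 0 in HMRKO + sham and 6, 0 and 0 in LC + sham livers.

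CD28 belongs to a family of receptors with shared ligands, of which 5 further receptor and ligand genes were tested and none passed in LC + MI against LC + sham livers. Cd86, a ligand of CD28, was lower in HMRKO + MI than in LC + MI livers (-1.07, SE 0.38, edgeR adjusted p = 0.0498) and than in HMRKO + sham livers (-1.4, SE 0.38, adjusted p = 0.0101). It had 11, 12 and 21 counts in HMRKO + MI livers, against 28, 49 and 30 in LC + MI and 43, 29 and 53 in HMRKO + sham livers. Against HMRKO + sham livers 2 of the 5 were lower, beside 21.7% of all genes. The other was Cd274, the gene of PD-L1 (-1.24, SE 0.34, edgeR adjusted p = 0.0108). Cd86 thus lay lower where Cd28 lay higher, and 12 of 18 alternatives lost its call against LC + MI livers. Cd80, the other ligand, had at most 5 counts in any library. Ctla4, an inhibitory receptor for the same ligands, and Icos, another costimulatory receptor, lie downstream of Cd28 in the RefSeq gene order of GRCm38.p6. Ctla4 had 0, 1 and 0 counts in HMRKO + MI livers and none in LC + MI livers. Icos had 5, 6 and 7 counts in HMRKO + MI, 13, 6 and 10 in LC + MI, 14, 13 and 12 in HMRKO + sham and 23, 13 and 11 in LC + sham livers, so neither neighbour was high in the livers with high Cd28. Raph1, on the other side of Cd28, had 35.1 ± 2.71 CPM in HMRKO + MI, 38.5 ± 3.49 in LC + MI, 58.2 ± 15.9 in HMRKO + sham and 65.1 ± 10.2 CPM in LC + sham livers (SD, n = 3 each).

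The genes whose log2 CPM over the 12 livers was most like that of Cd28 were 1110038B12Rik (r = 0.98), Fgf21 (r = 0.98) and Endov (r = 0.97). These r values are over livers that fall into 4 groups and are given as descriptions. Fgf21, a hormone secreted by hepatocytes, had 402, 372 and 194 counts in HMRKO + MI, 36, 85 and 47 in LC + MI, 16, 6 and 12 in HMRKO + sham and 21, 7 and 7 in LC + sham livers. Its order of groups was that of Cd28 for the MI livers, with HMRKO + MI replicate 3 the lowest of its group for both genes. For Nkg7 the nearest were Sgf29 (r = 0.94), Wdfy3 (r = 0.93) and B4galt4 (r = 0.93), and for Cd79a AU020206 (r = 0.93), Tmem132e (r = 0.93) and Dmpk (r = 0.92). Among the tested markers themselves, Cd28 had r of -0.64 to -0.85 with the other 5, which had r of 0.42 to 0.78 with each other.

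Markers of other cells moved in the same comparisons. Of 7 tested neutrophil genes, 4 were higher in HMRKO + MI than in LC + MI livers, beside 14.6% of all genes. Their list summed to 31.1 to 34.3 CPM in HMRKO + MI, 12.2 to 22.2 in LC + MI, 9.84 to 15.2 in HMRKO + sham and 5.01 to 14.2 CPM in LC + sham livers, and 1 of its 12 genes, Mpo, was at 0 in all HMRKO + MI libraries. The 8 pan-leukocyte genes summed to 47.5 to 70.5 CPM in HMRKO + MI, 66.4 to 70.4 in LC + MI, 83.1 to 89.4 in HMRKO + sham and 89.1 to 110 CPM in LC + sham livers, with none at 0. The further T cell genes summed to 9.45 to 11.7, 8.56 to 11.4, 14.6 to 22.6 and 12.3 to 22.1 CPM in those groups, in that order, and the B cell genes to 14.6 to 18, 20 to 27.6, 29.1 to 45.6 and 35.6 to 47.6 CPM. Of the 13 tested recruitment and egress genes, Cxcl13, a B cell chemoattractant, was higher in HMRKO + MI than in LC + MI livers (3.04 on the log2 scale, SE 0.75, edgeR adjusted p = 0.00996), and S1pr1 (-0.93, adjusted p = 0.00601) and Itgal (-0.63, adjusted p = 0.0268) were lower. The Itgal call was lost without any 1 of the HMRKO + MI or LC + MI livers (edgeR adjusted p 0.055 to 0.0707). Of the other lists in that comparison, 0 of 13 Kupffer cell and macrophage genes were higher and 1 lower, 0 of 6 dendritic cell genes higher and 1 lower, 2 of 5 erythroid genes higher, 1 of 8 sinusoidal endothelial genes higher and 1 of 10 hepatocyte genes higher. Beside these counts and those of the recruitment genes, 14.6% of all genes tested were higher and 16.2% lower. The part that any of these cell types had in the values of the 9 markers was not tested.

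At 12 hours after surgery Cd28 was again higher and Cd79b was lower in MI livers, in libraries of very unequal depth. Cd28 had 24, 183 and 49 estimated counts in MI livers, against 0, 1 and 1 in sham livers. As levels these were 1.68, 12.6 and 3.34 CPM in MI and 0, 0.395 and 0.347 CPM in sham livers, without overlap. Cd28 was higher by 4.32 on the log2 scale (SE 1.2, edgeR adjusted p = 0.00791, 12548 genes tested), and the ratio of summed counts was 20.9 with a counting interval of 5.74 to 174. The MI livers also differed widely among themselves, and replicate 2 was the highest.

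Cd79b had 0, 6 and 4 estimated counts in MI livers, against 2, 5 and 10 in the far smaller sham libraries. Its levels were 0, 0.414 and 0.272 CPM in MI and 1.18, 1.98 and 3.47 CPM in sham livers, and the difference was -3.26 (SE 0.78, edgeR adjusted p = 0.00387). Without sham replicate 3 it was -2.71 and did not pass (adjusted p = 0.054). Of the 2 markers tested, then, 1 was higher and 1 lower, beside 34.3% of all genes higher and 32% lower, so each direction is common in this comparison. With all livers, Cd28 met the filter through its counts in MI livers and Cd79b through those in the smaller sham libraries. Neither Cd28 nor Cd79b met the filter once any 1 of the MI livers was left out, and neither was then tested.

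**Figure D4:**
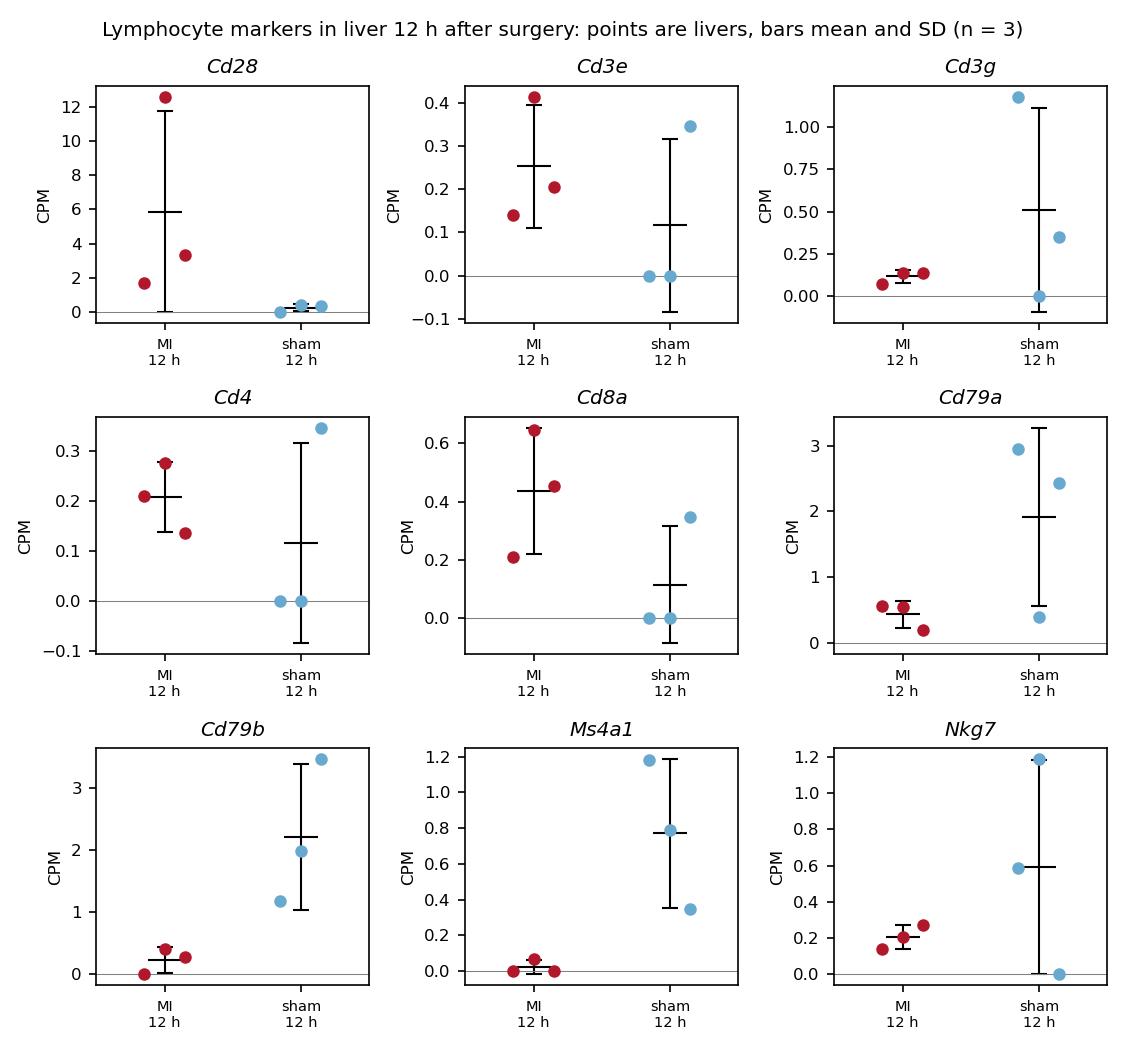
The level of each of the 9 markers in every liver at 12 hours, in CPM on a linear axis that differs between panels, with points for livers and black bars for the mean and SD (n = 3 a group). The MI livers lie above the sham livers for Cd28 and below them for Cd79b and Ms4a1, and most sham points stand for 0 to 3 counts.

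The other 7 markers did not reach the filter at 12 hours. Cd8a had 3, 9.33 and 6.67 estimated counts in MI livers, against 0, 0 and 1 in sham livers, a ratio of 3.11 per library size with a counting interval of 0.494 to 129. Cd3e had 2, 6 and 3 against 0, 0 and 1, Cd4 3, 4 and 2 against 0, 0 and 1, and Cd3g 1, 2 and 2 against 2, 0 and 1, each with an interval that spans 1. In a sham library 1 count is 0.347 to 0.589 CPM and in an MI library 0.0681 to 0.0702 CPM, so levels of the T cell genes seen in MI livers would often give no count in sham livers. Cd79a had 8, 8 and 3 estimated counts in MI livers, against 5, 1 and 7 in sham livers, a ratio of 0.239 (0.112 to 0.527). Ms4a1 had 0, 1 and 0 against 2, 2 and 1, a ratio of 0.0327 (0.000692 to 0.292), and without the filter it passed (edgeR adjusted p = 0.0167). Nkg7 had 2, 3 and 4 against 1, 3 and 0, a ratio of 0.368 (0.103 to 1.64).

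Levels can be set beside each other between genes only per length, which the length-scaled TPM values of the 12 hour table give. In MI livers the order was Cd28 (1.49 ± 1.46 TPM), Cd79a (0.373 ± 0.168), Nkg7 (0.293 ± 0.101), Cd79b (0.213 ± 0.191), Cd3e (0.197 ± 0.11), Cd8a (0.157 ± 0.0709), Cd3g (0.13 ± 0.0436), Cd4 (0.0767 ± 0.0252) and Ms4a1 (0.0133 ± 0.0231) (SD, n = 3 each). Neighbours from Cd79a to Cd3g do not differ beyond their spread, and Cd28 stands above Cd79a in 2 of 3 livers (0.43, 3.15 and 0.88 TPM against 0.48, 0.46 and 0.18 TPM). In sham livers the order was Cd79b (3.21 ± 1.64 TPM), Cd79a (2.5 ± 1.73), Nkg7 (1.29 ± 1.32), Cd3g (0.857 ± 1.01), Ms4a1 (0.64 ± 0.336), Cd3e (0.14 ± 0.242), Cd28 (0.1 ± 0.0872), and Cd4 and Cd8a (0.0633 ± 0.11 each), again with spreads that exceed most gaps between neighbours.

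The T and B cell list genes called at 12 hours were lower in MI livers, in a comparison where the make-up of the tissue RNA also differed. Of 7 tested T cell genes 0 were higher and 4 lower in MI livers (list median -3.53, all genes 0.11), and of 10 tested B cell genes 0 were higher and 8 lower (list median -3.32), beside 32% of all genes lower. Like Cd79b, each of the genes called lower in these lists met the filter through the smaller sham libraries. That favours lower values in MI livers among the genes tested, so the counts and list medians partly reflect the filter. Fcer2a, the low affinity IgE receptor of B cells, had 0.802, 0.72 and 0.571 CPM in MI and 19, 13.1 and 18.4 CPM in sham livers (-4.61 on the log2 scale, SE 0.33, edgeR adjusted p = 4.34e-06). The T cell transcription factor gene Lef1 had 0.0702, 0.345 and 0.0681 CPM in MI and 9.43, 15 and 11.8 CPM in sham livers (-6.12, SE 0.52, adjusted p = 7.56e-06). The T cell genes did not all follow Lef1, and 3 of those tested did not pass. Named after their values were seen, Zap70 and Tcf7 had means of 4.17 and 3.5 CPM in MI livers. Their means in sham livers were 4 and 2.16 CPM. The ratio of summed counts was 1.8 for Cd3e, 1.47 for Cd4, 3.11 for Cd8a and 0.273 for Cd3g, each with an interval that spans 1. Of 3 tested NK cell genes S1pr5 was higher (1.56, SE 0.55, adjusted p = 0.0276), a call that 4 of 9 alternatives lost, and Eomes, with no count in MI livers and 9.96, 7.77 and 8.15 estimated counts in sham livers, was lower. The 10 hepatocyte genes summed to 90400 to 127000 CPM in MI livers, against 36900 to 40800 CPM in sham livers, and 9 of them were higher in MI livers. Of 8 tested neutrophil genes 5 were higher and 2 lower, and of 7 dendritic cell genes 0 were higher and 5 lower, beside 34.3% and 32% of all genes. The neutrophil list nevertheless summed to less in MI livers, at 46.3 to 92.3 CPM against 137 to 188 CPM in sham livers. Its gene Cxcr2 had a mean of 8.5 CPM in MI and 95.2 CPM in sham livers. The part of these differences in the lymphocyte values was not tested, and the depth of the libraries cannot be told apart from the operation.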

How the data were processed

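RNA of 18 whole livers was sequenced (Illumina TruSeq libraries). The authors deposited counts per gene at 1 day, and estimated counts (expected counts, not all whole) with TPM at 12 hours. Bowtie2 2.2.3, HISAT2 2.1.0, TopHat2, DESeq2 and build mm9 are named in the submitters' processing notes with no role, and for the counting program, annotation and strand the sources used here give nothing. Deposited FPKM and group mean columns were not used.

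The groups follow the sample labels, except that the 1 day MI livers are titled by genotype and number only and were read as MI from the design text. Estimated counts were rounded, and edgeR 4.0.16 (R 4.3.3; filterByExpr with a minimum count of 10 and total of 15, TMM, quasi-likelihood F test, 1 coefficient per group) was fitted to the 12 livers at 1 day and separately to the 6 at 12 hours. Benjamini-Hochberg adjustment ran over 14266 and 12548 genes, and passing means an adjusted p under 0.05. The biological coefficient of variation was 0.209 and 0.24. Ratios of summed counts carry 95% exact conditional intervals, which cover counting error only. Patterns were compared by Pearson's r of log2 CPM with a prior count of 2.

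All 9 markers are named in every comparison, with up to 4 genes of smallest p per list and up to 3 genes of most similar pattern for markers the results turn on. A gene that this rule names in 1 list is not reported here. Members and lists were chosen with earlier results of these data known. Alternatives were RLE factors, DESeq2 1.42.0, other filters, a replicate block, fits of only the groups compared, limma 3.58.1 on log2(TPM + 0.1) of the authors' TPM at 12 hours, and leaving out each liver. The fits were tested on simulated counts, with changes put only into genes of higher counts than most of the markers. That test therefore does not cover the marker tests.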

Additional observations from a re-analysis of the deposited data

Results flagged for a closer look

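By the genotype by operation term of the edgeR fit, the change with MI differed between the genotypes in 2 lymphocyte genes of the lists. These were of 9 T cell, 12 B cell and 6 NK cell genes tested, a share under the 15.2% of all genes. Cd72, an inhibitory receptor gene of B cells, had an interaction of -0.81 on the log2 scale (edgeR adjusted p = 0.0388). It had 5.2, 5.11 and 4.67 CPM in HMRKO + MI, 9.62, 6.92 and 8.27 in LC + MI, 9.13, 8.19 and 11.1 in HMRKO + sham and 7.9, 9.03 and 9.79 CPM in LC + sham livers. The HMRKO + MI livers lay below the other 9, and 6 of 17 alternatives kept the call, with adjusted p between 0.0203 and 0.0919. S1pr5 had an interaction of -1.5 (edgeR adjusted p = 0.0252). It had 1.4, 3.07 and 3.35 CPM in HMRKO + MI, 10.5, 7.44 and 6.19 in LC + MI, 6.95, 6.46 and 6.14 in HMRKO + sham and 6.75, 6.11 and 8.26 CPM in LC + sham livers. Of 17 alternatives 15 kept that call, with adjusted p between 0.00327 and 0.062. None of the 9 markers was among these genes. Which cells gave the RNA of Cd72 and S1pr5 in these whole livers was not measured. The causes were not tested.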

How the results depend on the processing

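In LC + MI against LC + sham livers 1 marker passed, against 4 at an unadjusted p under 0.05, 2 without the filter, 0 when only the groups compared were fitted and 0 to 1 when single livers were left out. In HMRKO + MI against LC + MI livers 2 passed, against 1 with a mean count of at least 10, 1 with only the groups compared and 1 to 2 without single livers. The interaction passed for 0, against 1 at an unadjusted p under 0.05. At 12 hours 2 passed, against 1 with a mean count of at least 10 and 0 to 3 without single livers. The 0 there came from leaving out any MI liver, since neither gene then met the filter. Without single livers some directions turned: Cd79b in LC + MI against LC + sham livers ranged from -1.42 to 0.12 on the log2 scale, Cd4 in HMRKO + MI against LC + MI from -0.47 to 1.05, Cd79a and Cd79b in HMRKO + sham against LC + sham from -0.43 to 1.08 and from -0.9 to 0.63, and the interaction of Cd3g and Cd28 from -0.28 to 0.59 and from -1.38 to 0.86. None of these 6 passed in the main analysis. The replicate numbers did not pair the livers (r of same-numbered deviations -0.17 to 0.18 at 1 day and -0.09 to 0.02 at 12 hours, with 5 of 12 and 0 of 6 livers correlating best with their own number). With the replicate block Cd4 in HMRKO + MI against LC + MI livers was 0.02, no count of markers changed, and 621 against 714 genes passed in LC + MI against LC + sham, 4048 against 4400 in HMRKO + MI against LC + MI, 5978 against 6237 in HMRKO + MI against HMRKO + sham and 7963 against 8312 at 12 hours. Over all genes LC + MI against LC + sham gave 714 calls, 1307 with DESeq2, 1151 without the filter, 312 with only the groups compared and 176 to 1117 without single livers. HMRKO + sham against LC + sham gave 5, against 51, 84, 1 and 0 to 14 in the same order, and 3 with the block. HMRKO + MI against LC + MI gave 2564 to 4663 and the interaction 983 to 2268 without single livers, against 4400 and 2175. The causes were not tested. Depth limits all values of the 9 markers, since 74 of 108 at 1 day and 50 of 54 at 12 hours lie under 10 counts.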
